A study of Mus musculus with 20 samples.

Results

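The c-Jun N-terminal kinase (JNK) cascade was followed through 10 genes picked by symbol: the upstream kinases Map3k5 and Map3k7, the JNK kinases Map2k4 and Map2k7, the kinases Mapk8 and Mapk9 themselves, the scaffold Mapk8ip1, the phosphatases Dusp1 and Dusp10, and the stress-induced gene Ier3. They are 10 of the 32285 genes listed in the deposited table, and all 10 were among the 15875 genes that passed the filter on low counts. RNA was sequenced from 20 whole tumours of B16F10, a single transplantable mouse melanoma line, grown in wild type C57BL/6 mice with an intact immune system. Of the 4 groups, each with 5 tumours, the first received control IgG, the second propafenone, the third anti-PD-1, and the last both propafenone and anti-PD-1 (the combination). Propafenone, a sodium channel blocker, is used against cardiac arrhythmia, and anti-PD-1 blocks a checkpoint receptor that restrains T cells. Injections were intraperitoneal and began when a tumour measured about 100 mm3, and tumours were removed on day 16. Doses and the age of the mice are not given in the sources used here, nor is it stated that each tumour came from a mouse of its own, so the p-values measure the spread between these tumours. The title of the series names ferroptosis and synergy with immunotherapy as its subject, and the design asks whether either agent, or both, changed the tumour transcriptome.

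In a JNK cascade, a kinase of the MAP3K class that senses stress or cytokine signals phosphorylates the MAP2K pair MKK4 (Map2k4) and MKK7 (Map2k7), which in turn phosphorylate JNK1 (Mapk8) and JNK2 (Mapk9). Active JNK phosphorylates c-Jun and other transcription factors, scaffold proteins hold the kinases together, and dual-specificity phosphatases switch the kinases off. The cascade is run by phosphorylation, which transcript levels do not report, and in melanoma it has been tied to both growth and stress-induced cell death.

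The stretches in front of the genes that the results below turn on are printed here from the RefSeq promoter table of build GRCm38.p6, with Dusp1 beside them as a member whose level did not pass in any comparison. Each window covers the 250 bases before the RefSeq start and stops before the first base that GENCODE annotates as exon. The first 3 carry, in capitals, a match to the NF-kappaB motif or to the core CGTCA (or its reverse complement) of the cAMP response element (CRE), Map2k7 carries none, and Dusp1 carries a full CRE, TGACGTCA.
Ier3, chr17:35821463-35821683, + strand: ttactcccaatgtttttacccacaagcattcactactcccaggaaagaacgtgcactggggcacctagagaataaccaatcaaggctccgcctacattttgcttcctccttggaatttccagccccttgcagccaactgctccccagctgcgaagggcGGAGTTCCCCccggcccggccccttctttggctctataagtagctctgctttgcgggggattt
Map3k7, chr4:31963857-31964096, + strand: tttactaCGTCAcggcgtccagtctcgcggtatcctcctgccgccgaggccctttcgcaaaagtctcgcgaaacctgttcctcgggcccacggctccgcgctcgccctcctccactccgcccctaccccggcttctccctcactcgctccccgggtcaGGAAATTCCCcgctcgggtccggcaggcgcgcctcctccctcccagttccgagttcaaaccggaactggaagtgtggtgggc
Map2k4, chr11:65788360-65788609, - strand: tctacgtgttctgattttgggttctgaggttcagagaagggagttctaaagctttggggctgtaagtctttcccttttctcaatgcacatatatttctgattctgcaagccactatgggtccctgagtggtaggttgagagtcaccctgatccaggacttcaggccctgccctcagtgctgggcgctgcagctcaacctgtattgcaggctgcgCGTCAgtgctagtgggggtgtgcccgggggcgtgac
Map2k7, chr8:4238490-4238739, + strand: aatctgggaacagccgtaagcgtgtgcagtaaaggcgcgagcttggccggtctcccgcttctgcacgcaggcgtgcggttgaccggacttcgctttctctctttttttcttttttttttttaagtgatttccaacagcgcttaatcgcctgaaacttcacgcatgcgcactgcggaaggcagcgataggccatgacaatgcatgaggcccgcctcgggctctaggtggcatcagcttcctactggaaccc
Dusp1, chr17:26508520-26508722, - strand: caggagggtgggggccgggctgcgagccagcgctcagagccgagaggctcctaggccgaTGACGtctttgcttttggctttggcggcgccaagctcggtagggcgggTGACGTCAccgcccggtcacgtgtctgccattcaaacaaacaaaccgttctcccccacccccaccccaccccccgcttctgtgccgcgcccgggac

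Of the 10 members, 9 had an entry in that table, with 12 windows in all, and both strands of each whole window were searched. An NF-kappaB match was found in front of Ier3 and of Map3k7, in both at positions -92 to -83 relative to the start, and 3.90% of all 32851 windows hold one. The CRE itself was found in front of Dusp1 only among the members, against 1.55% of all windows. Its core CGTCA, which overlaps the CRE, was found in the first or only window of Map3k7, Map2k4, Mapk8, Mapk9 and Dusp1, against 17.8% of all windows. In that order these windows held 68.0, 54.0, 79.2, 63.6 and 68.4% G or C, against a median of 52.4% over all windows. Whether the matches exceed those of windows with like content was not tested. A match to the TATA box letters (TATAAA) was found in the second window of Map2k7, against 12.4% of all windows. It read on the strand opposite to the gene, at positions -72 to -67, and that window (chr8:4239855-4240104) lies inside the gene. The AP-1 motif (TGACTCA or TGAGTCA), to which c-Jun binds, was found in none of the 12 windows, against 4.46% of all, and the CArG box, bound by serum response factor, in none, against 1.47%. A match here describes letters in a window and not a site in use.

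The genes lie on 8 chromosomes of GRCm38 and are all protein coding. Map3k5 spans chr10:19934472-20142753 on the + strand, Map3k7 chr4:31964097-32023467 on the + strand, and Map2k4 chr11:65688243-65788297 on the - strand. Map2k7 spans chr8:4238740-4247897 on the + strand, Mapk8 chr14:33377898-33447158 on the - strand, and Mapk9 chr11:49846751-49886421 on the + strand. Mapk8ip1 lies at chr2:92383676-92401263 on the - strand, Dusp1 at chr17:26505590-26562128 on the - strand, Dusp10 at chr1:184013302-184075636 on the + strand, and Ier3, the shortest, at chr17:35821684-35822923 on the + strand. Exons of Map2k7 overlap the span of Gm49320, on the same strand. Exons of Mapk8ip1 overlap the span of 1700029I15Rik, and those of Dusp1 the span of Ergic1, both on the opposite strand. Whether they overlap exons of those genes was not examined, and Gm49320 is not among the counted genes. The strand setting of the counting is not given in the sources used here. Where exons of such a pair do overlap, their reads may not be told apart, and the levels of those 3 members are uncertain to that extent.

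Counts summed to between 56 and 64.5 M (M, 1e6 counts) per tumour. The melanocyte markers were abundant in each group, with summed levels from 14416 to 23441 CPM (counts relative to a fixed total per tumour), and no gene of that list was called in any comparison. Markers of other cells moved with the combination: 7 of 10 macrophage, 7 of 10 skeletal muscle and 4 of 8 fibroblast markers were called higher than in IgG tumours. None of 9 tested T and NK cell markers was called. All 9 were higher in that comparison (median log2 fold change 1.28), at mean levels from only 0.18 to 0.81 CPM, and such low levels limit the test. In 5 tumours (IgG 4 and 5, propafenone 4 and 5, anti-PD-1 2) the haemoglobin gene Hbb-bs exceeded 1000 CPM.

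Per unit of transcript length, Ier3 and Mapk8ip1 were the most abundant of the 10 genes and Dusp10 the least. Over the 20 tumours the mean level was 256 TPM (a level scaled by length to a common total, as deposited by the authors) for Ier3, with a range from 71.5 to 549 TPM. It was 147 TPM for Mapk8ip1, 57.9 TPM for Map2k4, 41.5 TPM for Map3k7, 38.5 TPM for Map2k7 and 32.9 TPM for Mapk9. It was 11.1 TPM for Dusp1, 10.2 TPM for Map3k5, 9.11 TPM for Mapk8 and 1.64 TPM for Dusp10. Of the 2 JNK genes, Mapk9 was thus the more abundant transcript in these tumours, and its range did not reach that of Mapk8 (28.8 to 38.9 against 5.29 to 14.5 TPM). Neighbours in this order were not always apart: Dusp1 exceeded Map3k5 in 11 of 20 tumours, Map3k5 exceeded Mapk8 in 15, Map3k7 exceeded Map2k7 in 16 and Map2k7 exceeded Mapk9 in 18. Mapk8ip1 exceeded Map2k4, Map2k4 exceeded Map3k7, Mapk9 exceeded Dusp1 and Mapk8 exceeded Dusp10 in all 20. Ier3 exceeded Mapk8ip1 in 16 tumours but in only 2 of the 5 combination tumours, where both genes averaged 140 TPM (140.2 ± 26.8 for Ier3 and 140.0 ± 10.9 for Mapk8ip1, SD, n = 5).

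**Figure D1:**
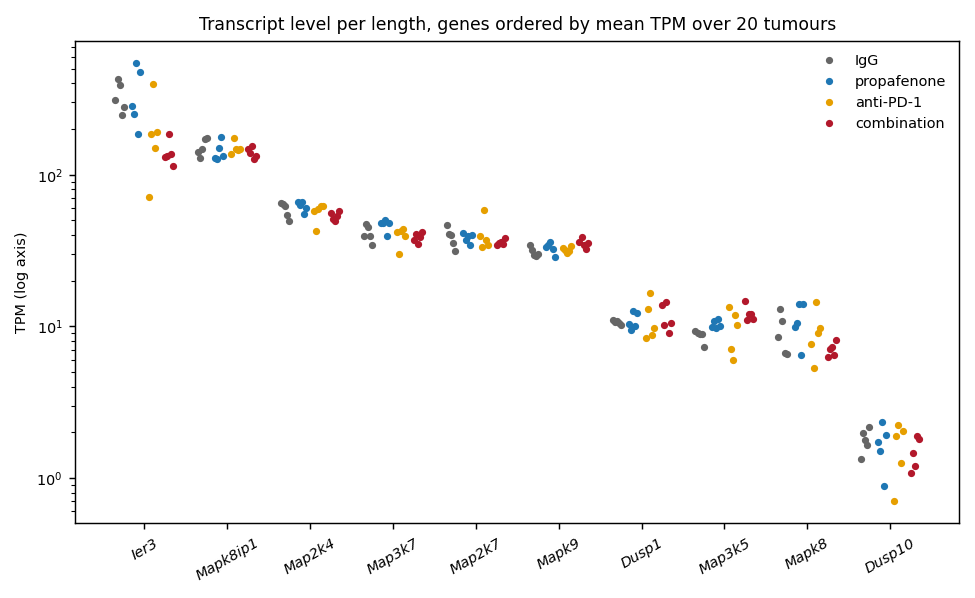
TPM of the 10 genes on a log axis, 1 dot per tumour, coloured by group, genes ordered by their mean over 20 tumours. Ier3 spreads from 71.5 to 549 TPM while Mapk9 stays between 28.8 and 38.9 TPM.

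The genes also differed in how much tumours of a group varied. The within-group SD of log2 CPM was 0.61 for Ier3, higher than in 99.4% of the 2926 genes of like level. It was 0.37 for Mapk8, higher than in 91.1% of 3842 such genes. For Mapk9 it was 0.09, for Map2k7 0.10 and for Map2k4 0.10, higher than in only 5.91%, 9.24% and 15.1% of genes of like level. Mapk9, Map2k7 and Map2k4 were thus among the steadier transcripts of their level, and Ier3 and Mapk8 among the less steady. Counting error bears most on Dusp10, with 58 to 187 counts per tumour, against 2373 to 18172 for Ier3.

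Compared with IgG tumours, combination tumours had lower levels of Map2k4, Map2k7 and Ier3. These 3 of 10 members passed an adjusted p under 0.05 in the edgeR quasi-likelihood test over all 15875 genes, in which 4.88% of genes were called (356 higher and 418 lower). The split of calls depends on the scaling: 306 higher and 217 lower with RLE size factors, 368 and 112 with library totals, and 897 and 133 on log2(TPM + 1) values. So do the member calls: under these settings, in that order, they were none, none and Ier3 alone. The members' median log2 fold change was -0.24, against -0.01 over all genes, with 7 members lower and 3 higher. Compared with propafenone tumours, the combination had lower Map3k7, Map2k4 and Ier3, again 3 of 10 members where 3.88% of genes were called (265 higher and 351 lower; 231 and 207 with RLE size factors, 258 and 89 with library totals, 638 and 135 on log2(TPM + 1) values). The members called there under the same other settings were Map3k7 alone, none and Ier3 alone, in that order. In the main fit the members' median there was -0.15, against -0.01 over all genes. No member was called for either agent alone against IgG, for the combination against anti-PD-1, or for the interaction. Both comparisons with calls share the 5 combination tumours, and the comparisons with IgG share its 5 tumours.

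**Figure D2:**
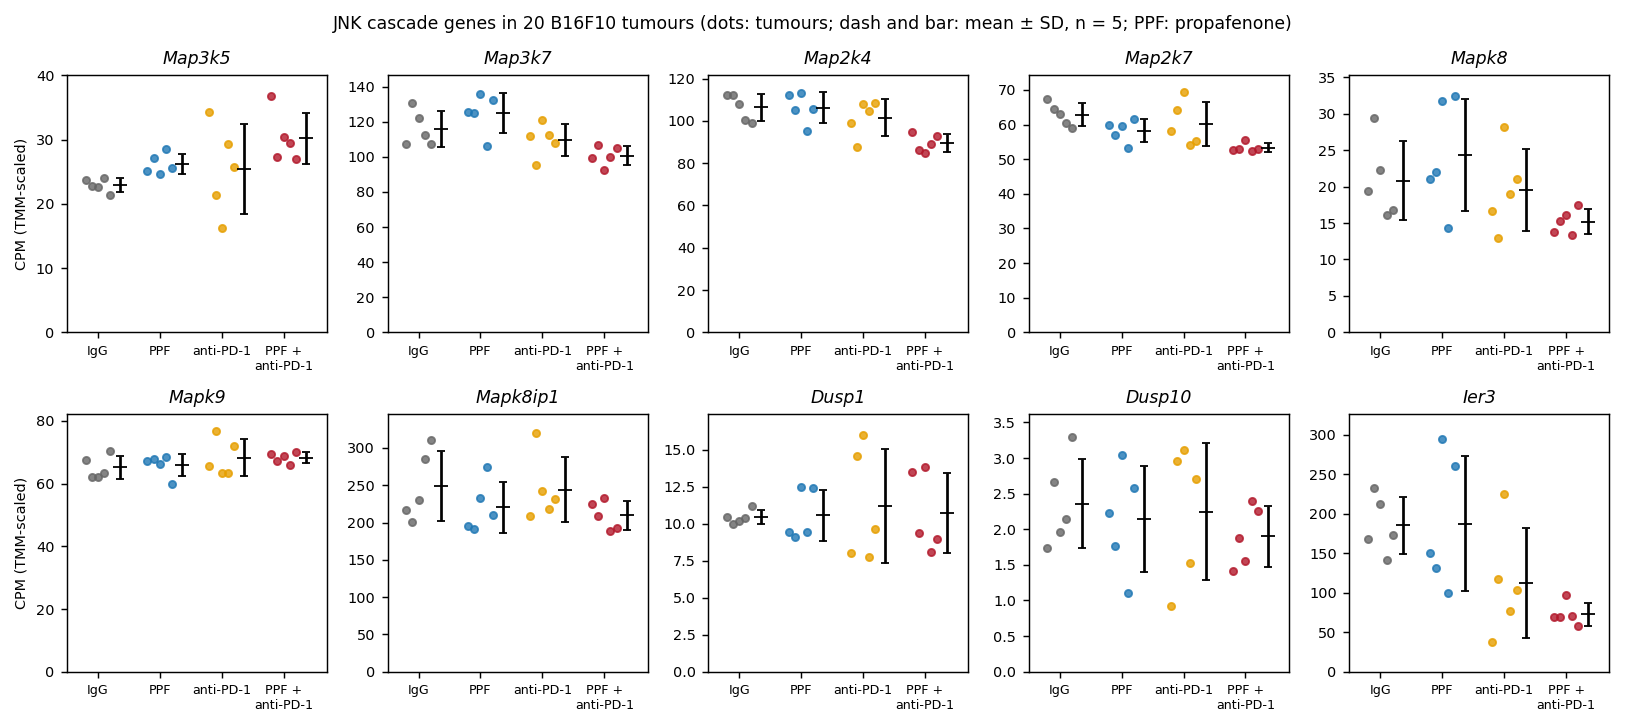
CPM of each member in 20 tumours, 1 dot per tumour with the mean ± SD of each group of 5 beside it, on axes that start at 0. Combination tumours sit below all IgG tumours for Map3k7, Map2k4, Map2k7 and Ier3 and above them for Map3k5.

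Without regard to p, 5 members had combination and IgG tumours that did not overlap, Map3k5 higher and Map3k7, Map2k4, Map2k7 and Ier3 lower, where 11.9% of all genes were separate in this way. Between propafenone and IgG tumours 1 member, Map3k5, was separate, against 1.23% of all genes, and between anti-PD-1 and IgG tumours none, against 0.951%.

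Map3k5 encodes ASK1, a MAP3K that is held inactive by thioredoxin and released by oxidative stress. The IgG tumours had 23.7, 22.8, 22.7, 24.1 and 21.4 CPM and the combination tumours 36.8, 27.3, 30.4, 29.4 and 27.0 CPM, in the order of their replicate numbers. The propafenone tumours had 25.2, 27.1, 24.6, 28.6 and 25.6 CPM and the anti-PD-1 tumours 34.4, 21.4, 16.3, 29.3 and 25.7 CPM. Each propafenone and each combination tumour lay above each IgG tumour, while the anti-PD-1 tumours spread on both sides. The log2 fold change against IgG was 0.40 ± 0.14 (SE) in the combination, which missed the threshold (adjusted p = 0.094), 0.19 ± 0.14 with propafenone (adjusted p = 0.92) and 0.15 ± 0.14 with anti-PD-1 (adjusted p = 0.89). DESeq2 called the first of these (adjusted p = 0.047), and over the 31 alternatives the adjusted p ran from 0.033 to 0.68. Against propafenone the combination differed by 0.20 ± 0.14 (adjusted p = 0.39) and against anti-PD-1 by 0.25 ± 0.14 (adjusted p = 0.56).

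Map3k7 encodes TAK1, the MAP3K that relays interleukin-1, TNF and TGF-beta signals to both JNK and NF-kappaB. The propafenone tumours had 126, 125, 136, 106 and 132 CPM and the combination tumours 99.2, 107, 92.8, 99.8 and 105 CPM. The IgG tumours had 107, 130.4, 122, 113 and 107 CPM and the anti-PD-1 tumours 112, 95.3, 121, 112 and 108 CPM. The combination tumours were the lowest group on average and separate from IgG by a narrow margin (107.0 against 107.1 CPM), and 1 propafenone tumour, at 106 CPM, reached down among them. Map3k7 fell in the combination against propafenone (log2 fold change -0.31 ± 0.077, edgeR adjusted p = 0.035). Against IgG the value was -0.20 ± 0.077 (adjusted p = 0.12), and against anti-PD-1 it was -0.12 ± 0.077 (adjusted p = 0.60). Propafenone alone stood at 0.11 ± 0.077 above IgG (adjusted p = 0.91) and anti-PD-1 alone at -0.08 ± 0.077 (adjusted p = 0.89). The interaction, which is the propafenone difference with anti-PD-1 minus that without it, was -0.23 ± 0.11 for Map3k7 (edgeR adjusted p = 0.99).

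Map2k4 encodes MKK4, a kinase that activates JNK and, in many settings, p38. The IgG tumours had 112, 112, 108, 101 and 99.1 CPM and the combination tumours 94.8, 86.1, 84.7, 88.9 and 92.9 CPM. The propafenone tumours had 112, 105, 113, 95.2 and 105 CPM and the anti-PD-1 tumours 99.1, 87.5, 108, 105 and 108 CPM. No combination tumour reached the lowest IgG or propafenone tumour, and 1 anti-PD-1 tumour, at 87.5 CPM, fell among the combination tumours. Map2k4 was lower in the combination by -0.25 ± 0.068 on the log2 scale against IgG (edgeR adjusted p = 0.039) and by -0.25 ± 0.068 against propafenone (adjusted p = 0.045). Against anti-PD-1 the value was -0.18 ± 0.068 (adjusted p = 0.45), and anti-PD-1 against IgG gave -0.07 ± 0.068 (adjusted p = 0.89). These are changes of small size in a gene with small spread: the group means were 106 ± 6.33 CPM for IgG and 89.5 ± 4.32 CPM for the combination (SD, n = 5). The edgeR call against IgG was lost with RLE size factors (adjusted p = 0.062), no filter (adjusted p = 0.063) and library totals (adjusted p = 0.20). On log2(TPM + 1) values limma gave -0.14 (adjusted p = 0.41).

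Map2k7 encodes MKK7, the MAP2K that is specific for JNK and is prominent after cytokine stimulation. The IgG tumours had 67.4, 64.5, 63.0, 60.4 and 58.9 CPM and the combination tumours 52.8, 52.8, 55.6, 52.2 and 52.9 CPM. The propafenone tumours had 59.9, 56.9, 59.6, 53.3 and 61.6 CPM and the anti-PD-1 tumours 58.2, 64.1, 69.4, 54.2 and 55.3 CPM. The combination tumours formed the narrowest group and lay below all IgG tumours, and they overlapped both single-agent groups. Map2k7 was lower in the combination than in IgG tumours by -0.24 ± 0.069 on the log2 scale (edgeR adjusted p = 0.049), the call closest to the threshold. The value was -0.13 ± 0.069 against propafenone (adjusted p = 0.26), -0.18 ± 0.069 against anti-PD-1 (adjusted p = 0.45), and -0.11 ± 0.069 for propafenone against IgG (adjusted p = 0.91). The edgeR call against IgG was lost with RLE size factors (adjusted p = 0.077), no filter (adjusted p = 0.079) and library totals (adjusted p = 0.18). On log2(TPM + 1) values limma gave -0.10 (adjusted p = 0.65).

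Mapk8 encodes JNK1 and Mapk9 encodes JNK2, the widely expressed JNK genes. For Mapk8 the IgG tumours had 19.4, 29.4, 22.3, 16.1 and 16.8 CPM and the combination tumours 13.8, 15.2, 16.1, 13.4 and 17.4 CPM. The propafenone tumours had 21, 22.0, 31.7, 14.4 and 32.4 CPM and the anti-PD-1 tumours 16.6, 12.9, 28.1, 18.9 and 21 CPM. Each of the other 3 groups held tumours within the range of the combination tumours, and only those groups held tumours above 18 CPM. Mapk8 passed in no comparison: the log2 fold change of the combination was -0.45 ± 0.22 against IgG (adjusted p = 0.21), -0.68 ± 0.22 against propafenone (adjusted p = 0.072) and -0.36 ± 0.22 against anti-PD-1 (adjusted p = 0.58). Against propafenone DESeq2 called it (adjusted p = 0.033), as did edgeR without the tumours rich in Hbb-bs (adjusted p = 0.035) and without propafenone 4 (adjusted p = 0.017), in a range from 0.017 to 0.39 over the alternatives. Propafenone alone gave 0.23 ± 0.22 against IgG (adjusted p = 0.92), and the interaction was -0.59 ± 0.30 (adjusted p = 0.99). Mapk9 held a mean of 65.2 ± 3.75 CPM in IgG and 68.3 ± 1.73 CPM in combination tumours (SD, n = 5), a log2 fold change of 0.07 ± 0.064 (adjusted p = 0.54), and its adjusted p was 0.54 or more in every comparison.

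Mapk8ip1 encodes JIP1, a scaffold that binds MKK7 and JNK. Its levels ran from 201 to 311 CPM in IgG, 191 to 274 CPM in propafenone, 209 to 319.5 CPM in anti-PD-1 and 189 to 233 CPM in combination tumours, with overlap between all groups. The combination differed from IgG by -0.24 ± 0.13 on the log2 scale (adjusted p = 0.26), a fold close to those of Map2k4 and Map2k7 with a wider error.

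Dusp1 and Dusp10 encode dual-specificity phosphatases, MKP-1 and MKP-5, that remove the activating phosphates from JNK and p38. Dusp1 averaged 10.4 ± 0.455 CPM in IgG, 10.6 ± 1.72 in propafenone, 11.2 ± 3.84 in anti-PD-1 and 10.7 ± 2.70 in combination tumours (SD, n = 5). Its means lay close together and its spread was several times wider in the treated groups than in IgG, a description that was not tested. The combination against IgG gave a log2 fold change of 0.04 ± 0.20 (adjusted p = 0.92), with a sign that turned without combination 3 (-0.07). Dusp10 averaged 2.36 ± 0.626 CPM in IgG and 1.9 ± 0.427 CPM in combination tumours, a log2 fold change of -0.31 ± 0.31 (adjusted p = 0.57). That difference in Dusp10 was about the size of its SE and was not called, and no limit of detection was computed.

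Ier3, also known as IEX-1, is an immediate early gene induced by stress, growth factors and NF-kappaB that affects cell survival. The IgG tumours had 168, 232, 212, 142 and 173 CPM and the combination tumours 69.1, 69.3, 97.2, 70.8 and 57.4 CPM. The propafenone tumours had 150.5, 131, 295, 99.6 and 260.1 CPM and the anti-PD-1 tumours 37.9, 118, 225, 77.4 and 103 CPM. All 5 combination tumours lay below all IgG and all propafenone tumours, and the anti-PD-1 tumours ran from the lowest value of the series up into the IgG range. Ier3 had the largest fold change of the members: -1.35 ± 0.37 on the log2 scale against IgG (edgeR adjusted p = 0.044) and -1.36 ± 0.37 against propafenone (adjusted p = 0.046). Against anti-PD-1 the value was -0.63 ± 0.36 (adjusted p = 0.57), anti-PD-1 alone gave -0.72 ± 0.36 against IgG (adjusted p = 0.67), and the interaction was -0.64 ± 0.51 (adjusted p = 0.99). On log2(TPM + 1) values it was the only member called against IgG, with -1.23 (limma adjusted p = 0.031). The edgeR call against IgG was lost with RLE size factors (adjusted p = 0.053), no filter (adjusted p = 0.072) and library totals (adjusted p = 0.060).

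**Figure D3:**
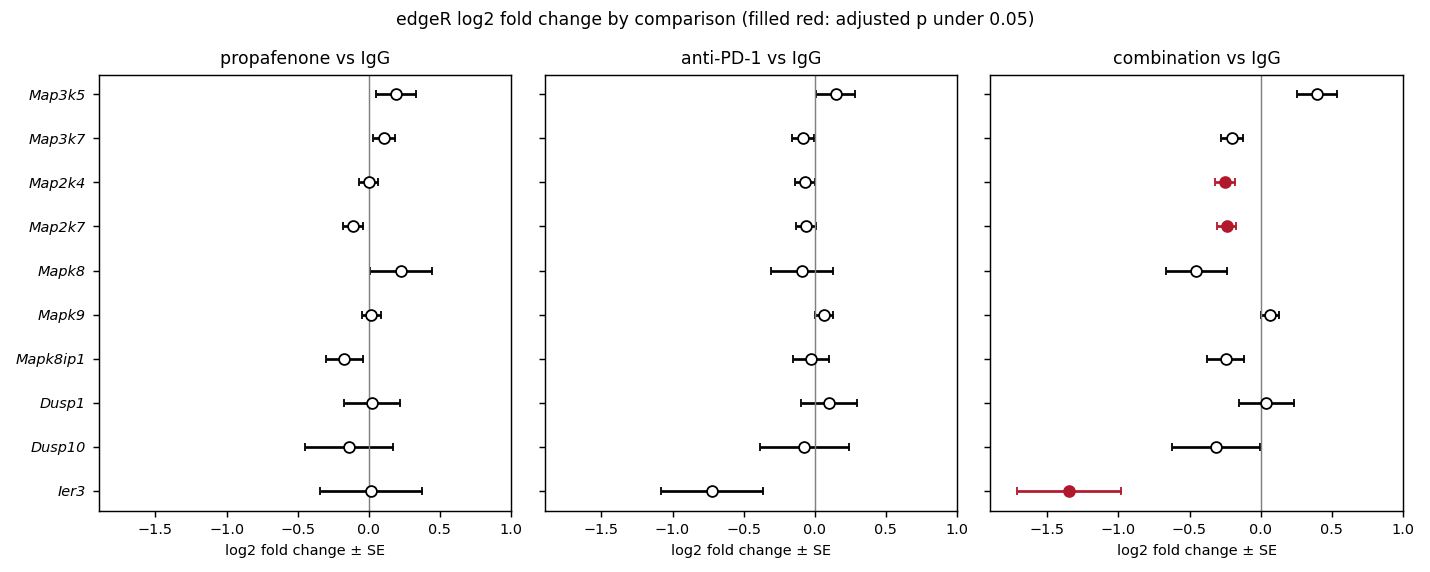
Log2 fold change ± SE of the 10 members against IgG tumours from edgeR, for propafenone, anti-PD-1 and the combination, which share the same 5 IgG tumours. Filled red points passed an adjusted p under 0.05: Map2k4, Map2k7 and Ier3 in the combination, and none for a single agent.

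For the single agents, edgeR called 0 of 15875 genes with propafenone against IgG (0% called, 754 genes at an unadjusted p under 0.05, and 4 genes by DESeq2) and 0 with anti-PD-1 against IgG (0% called, 1203 at an unadjusted p under 0.05, 26 by DESeq2). For the combination against anti-PD-1 it also called 0 (1552 at an unadjusted p under 0.05, 7 by DESeq2), and for the interaction 0 (482 at an unadjusted p under 0.05, 0 by DESeq2). Among the members, adjusted p was at least 0.91 with propafenone and at least 0.67 with anti-PD-1. For the interaction it was at least 0.99, so a response beyond the sum of the single agents on the log2 scale was not shown for any member.

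The wider pathway was read from 6 lists with 82 genes, of which 80 were tested (Jun, Junb and Atf3 stand in 2 lists). In the combination against IgG, 1 of the 80 rose and 1 fell, a smaller share than the 4.88% called over all genes. Their median was -0.11, against -0.01 over all genes. Among 28 upstream kinases and adaptors, Map3k10, a mixed lineage kinase that activates the JNK kinases, had a log2 fold change of -0.33 ± 0.093 (edgeR adjusted p = 0.048) and went from 57.0 ± 7.78 to 45.5 ± 4.22 CPM (SD, n = 5), with groups that did not overlap. The median of that list was -0.10, or -0.09 relative to the median of all genes. On log2(TPM + 1) values it was 0.02, or -0.06 relative to that median, which stood at 0.08 there. Among 6 genes of the p38 arm and the third JNK none passed. There Mapk13, a p38 kinase, had the smallest p, with -0.46 ± 0.18 (adjusted p = 0.12). None of 5 tested scaffolds passed either, with Sh3rf1, a scaffold also called POSH, at -0.21 ± 0.13 (adjusted p = 0.33). Of 15 phosphatases and Gadd45 proteins 0 passed, with values of -0.16 ± 0.059 for Dusp4 (adjusted p = 0.10) and -0.74 ± 0.28 for Dusp9 (adjusted p = 0.12). Of 13 JNK substrates 0 passed as well. The transcription factor genes Jund and Elk1 came first there, at -0.77 ± 0.29 (adjusted p = 0.12) and -0.20 ± 0.096 (adjusted p = 0.20), each with combination tumours below all IgG tumours. Mapk13 was separate in that way too, and 11.9% of all genes had groups that did not overlap, in either direction. The margin was narrow for Jund (58.4 against 58.8 CPM) and for Map3k10 (50.2 against 50.4 CPM).

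Immediate early genes, which growth factor and stress signals switch on without new protein synthesis, had the lowest median of the lists, -0.51, with 13 of 16 below 0, against -0.01 over all genes. The count was 13 of 16 under each of the RLE, DESeq2, library total and TPM scalings. None of these 13 passed by itself, for example Fos at -0.68 ± 0.42 (adjusted p = 0.34) and Nr4a1 at -0.60 ± 0.22 (adjusted p = 0.11). The single call ran the other way: Egr3 rose by 1.03 ± 0.28 (adjusted p = 0.044), from 0.568 ± 0.132 to 1.16 ± 0.376 CPM (SD, n = 5), a very low level. Against propafenone, the combination had 2 of the 80 genes called, both lower, a smaller share than the 3.88% called over all genes. They were Map3k13, a kinase known as LZK that acts on JNK, at -0.60 ± 0.14 (adjusted p = 0.028; 13.1 ± 1.72 against 8.61 ± 1.40 CPM, SD, n = 5), and Dusp4, the nuclear phosphatase MKP-2, at -0.22 ± 0.059 (adjusted p = 0.046; 191 ± 5.22 against 164 ± 5.68 CPM, SD, n = 5). Of the 16 immediate early genes 0 passed there, with Maff at -0.93 ± 0.32 (adjusted p = 0.091) and Ier5 at 0.44 ± 0.16 (adjusted p = 0.11). Of the substrates 0 passed, with the ubiquitin ligase gene Itch at -0.23 ± 0.082 (adjusted p = 0.11) and Junb at -0.97 ± 0.41 (adjusted p = 0.16). In the other 4 contrasts none of the 80 genes passed.

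Some members moved together from tumour to tumour and others moved apart. How r is spread over all pairs of genes was not examined. Over the 20 tumours, which share their groups and their marker content, Pearson's r of log2 CPM was 0.88 between Map3k7 and Mapk8, 0.81 between Map3k7 and Map2k4 and 0.78 between Map2k4 and Mapk8. After group means were removed these were 0.84, 0.69 and 0.71, so the covariation was not only a difference between groups. Map2k7 tracked Ier3 (r = 0.71, 0.67 within groups) more than it tracked Map2k4 (r = 0.56, 0.19 within groups). Map3k5 ran opposite to Ier3 (r = -0.72, -0.74 within groups), Map2k7 (r = -0.77, -0.63) and Dusp10 (r = -0.74, -0.77). Mapk9 ran opposite to Map3k7 (r = -0.65, -0.69 within groups) and to Mapk8 (r = -0.59, -0.57). Within groups Mapk8ip1 ran opposite to Map2k4 (r = -0.20, -0.70 within groups), Map3k7 (r = -0.31, -0.65) and Mapk8 (r = -0.30, -0.52).

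**Figure D4:**
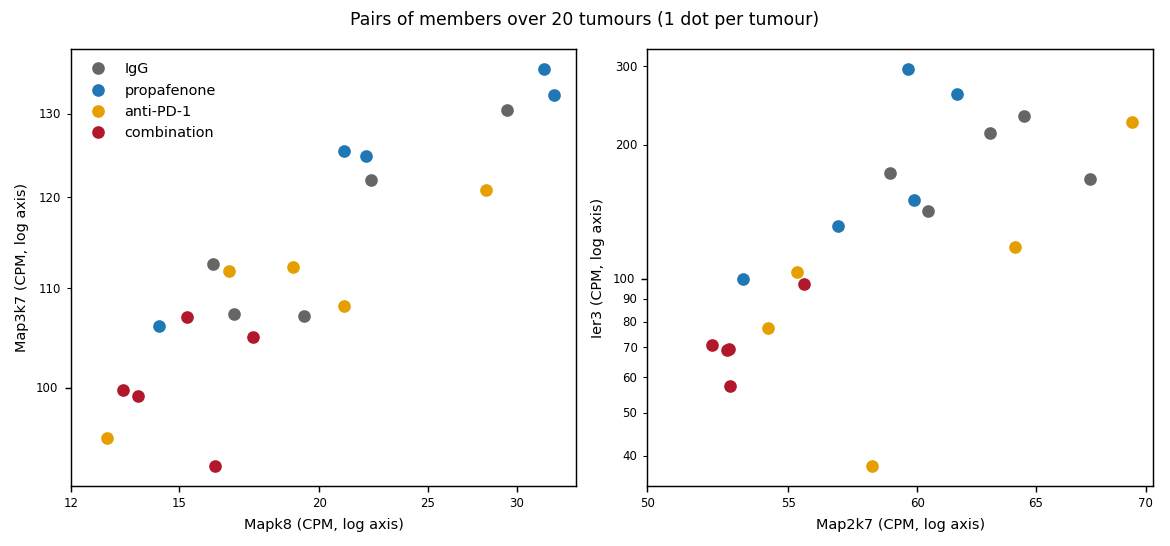
Map3k7 against Mapk8 and Ier3 against Map2k7 in 20 tumours, CPM on log axes, 1 dot per tumour coloured by group. Both pairs rise together (r = 0.88 and 0.71), and combination tumours lie toward the lower left.

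The genes most like each member were sought among 10456 genes with a mean of at least 5 CPM, by r of log2 CPM over the 20 tumours. For Ier3 they were Sertad1, Hilpda and Sema6b, with r = 0.97 for each and 0.96, 0.95 and 0.94 within groups. Hilpda is a lipid droplet gene known to be induced by hypoxia. In the combination against IgG the log2 fold changes were -1.22 for Sertad1 (adjusted p = 0.060), -1.24 for Hilpda (adjusted p = 0.057) and -0.94 for Sema6b (adjusted p = 0.036). For Mapk8 the nearest gene was Tmem161b (r = 0.98), for Map3k7 Cops2, a subunit of the COP9 signalosome (r = 0.96), and for Map2k4 Ubxn2a (r = 0.95). The nearest gene was Snapc2 for Map2k7 (r = 0.90), Arl2 for Mapk8ip1 (r = 0.93), Eif4a2 for Map3k5 (r = 0.85), Pcolce for Dusp1 (r = 0.84), Rbm17 for Dusp10 (r = 0.81) and Ngly1 for Mapk9 (r = 0.76). Mapk8, Map3k7 and Map2k4 had closer neighbours than the phosphatases or Mapk9, while Map3k5, also a kinase gene, was level with Dusp1. Counts and spread limit the highest r that a gene can reach, and Dusp10 had few counts and Mapk9 little spread.

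Beside these results stand the levels of other cell types, whose part in them was not tested. In whole tumours, fewer cells of a type and less RNA per cell cannot be told apart. The summed level of 10 macrophage markers ran from 36.6 to 164 CPM in IgG, 53.8 to 180.1 in propafenone, 108 to 204 in anti-PD-1 and 183 to 426 in combination tumours. That of 10 skeletal muscle markers ran from 6.5 to 66.1 CPM in IgG, 11.2 to 59.3 in propafenone, 6.11 to 265 in anti-PD-1 and 36 to 489 in combination tumours. Fibroblast markers ran from 139 to 514 CPM in IgG, 115 to 254 in propafenone, 248 to 952 in anti-PD-1 and 499 to 1218 in combination tumours, and red blood cell markers from 290.2 to 11681, 769 to 6588, 307 to 5771 and 172 to 453 CPM. No marker of these 4 lists was at 0 in all tumours of a group. Combination 3 had the lowest muscle sum of its group (36 CPM) and the highest macrophage and fibroblast sums of the series (426 and 1218 CPM). Its Map2k4 level was the lowest of the series (84.7 CPM) and its Ier3 level the highest of its group (97.2 CPM). With a muscle score as a covariate edgeR called 0 genes in the combination against IgG, and the values were -0.37 for Map2k4 (adjusted p = 0.11), -0.17 for Map2k7 (adjusted p = 0.43) and -0.98 for Ier3 (adjusted p = 0.39). With the macrophage sum it also called 0, with -0.19 (adjusted p = 0.52), -0.22 (adjusted p = 0.48) and -1.49 (adjusted p = 0.44). The macrophage sums of IgG and combination tumours did not overlap, and their muscle sums overlapped only in part. In such fits covariate and treatment cannot be told apart, and a loss of calls does not show what the differences come from. Against propafenone, the muscle score left Map3k7 at -0.42 (adjusted p = 0.020) and Map2k4 at -0.33 (adjusted p = 0.030), with Ier3 at -1.10 (adjusted p = 0.14), and the macrophage sum left none of the 3 past the threshold (adjusted p = 0.38, 0.42 and 0.37). For the comparison with IgG, leaving out the 5 tumours rich in Hbb-bs let Map2k4 and Map2k7 pass (-0.30, adjusted p = 0.015, and -0.27, adjusted p = 0.045), with Ier3 at -1.47 (adjusted p = 0.061).

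The calls sit near the threshold, and over single omissions the sizes were steadier than the calls. Over all 31 alternatives the sizes against IgG varied more. They ran from -0.37 to -0.14 for Map2k4, from -0.27 to -0.10 for Map2k7 and from -1.49 to -0.98 for Ier3. All 3 members lost their calls against IgG whichever 1 of the 5 IgG or 5 combination tumours was left out, and also without propafenone 1 or propafenone 5. The log2 fold change then ran, over all 20 single omissions, from -0.27 to -0.23 for Map2k4 (adjusted p = 0.022 to 0.10), from -0.25 to -0.21 for Map2k7 (adjusted p = 0.041 to 0.12) and from -1.47 to -1.25 for Ier3 (adjusted p = 0.025 to 0.11). Without IgG 3 the count over all genes fell to 5. Against propafenone the ranges were -0.36 to -0.26 for Map3k7 (adjusted p = 0.0077 to 0.18), -0.28 to -0.21 for Map2k4 (adjusted p = 0.015 to 0.21) and -1.52 to -1.12 for Ier3 (adjusted p = 0.017 to 0.19), and all 3 calls were lost without IgG 4, IgG 5, propafenone 1, 3 or 5, or any 1 of the combination tumours. Without propafenone 3 the count over all genes there was 4. Over all 31 alternatives, Map3k10 kept its call in 4 (3 of them omissions; adjusted p up to 0.74), Egr3 in 13 (7 omissions; up to 0.49), Map3k13 in 21 (13 omissions; up to 0.36) and Dusp4 in 7 (6 omissions; up to 0.36). None of the 6 called member values changed sign in any of the 31 alternatives tried. For all of them but Map3k7 against propafenone the compared groups did not overlap, so leaving out 1 tumour could hardly turn the sign. Tumours outside the compared groups enter these sizes only through the shared fit and scaling. The single omissions are thus a weak check of sign and size.

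**Figure D5:**
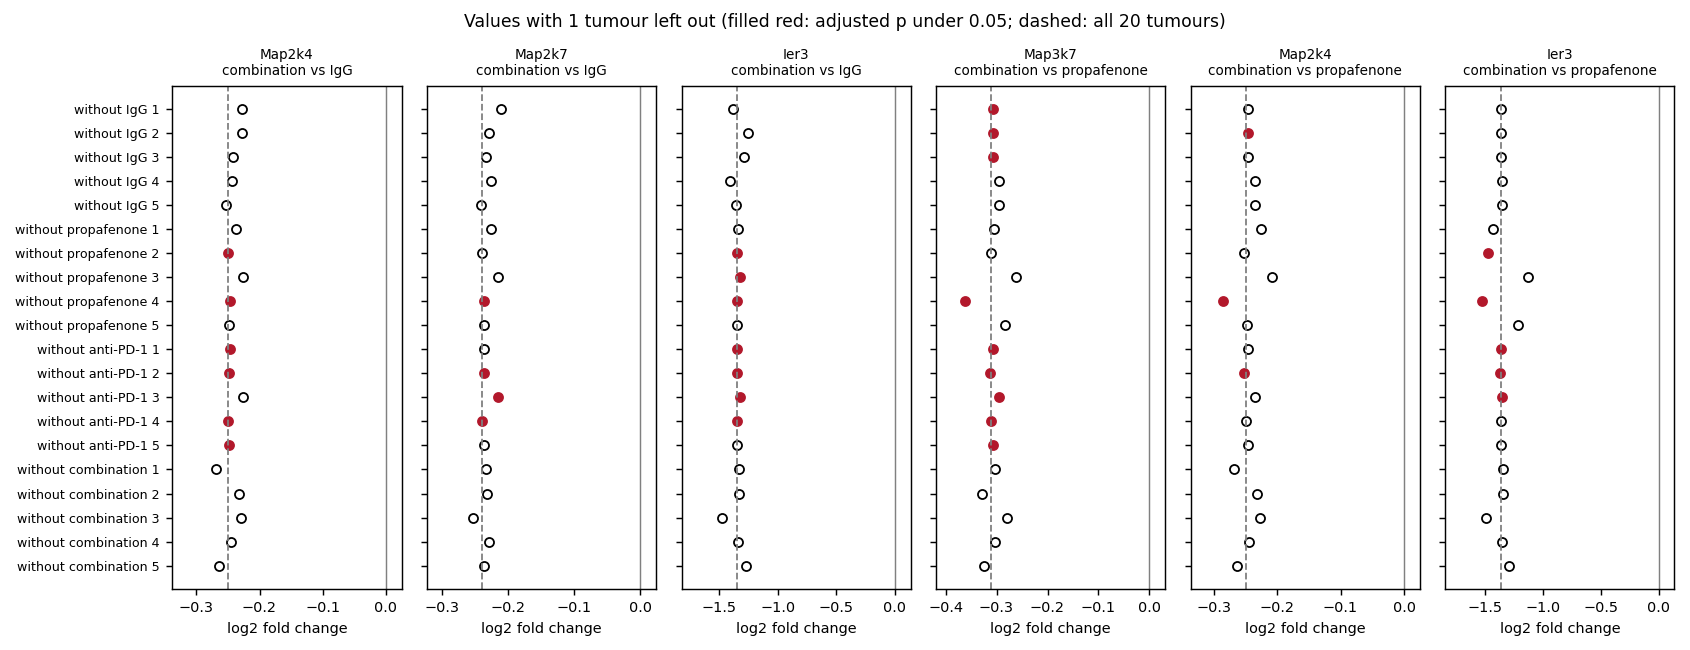
Log2 fold change of the 6 called member values with 1 tumour left out at a time (20 fits per panel), the dashed line giving the fit on all 20 tumours. Filled red points passed an adjusted p under 0.05. No point crosses 0, and where the compared groups do not overlap (all panels but Map3k7) 1 omission could hardly make it do so.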

How the data were processed

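Per the labels, RNA of 20 tumours was sequenced after preparation with a SMARTER mRNA kit. FastQC, the aligner HISAT2 2.2.1 and SAMtools 1.9 are listed, with builds GRCm38 and mm10, per the submitters' processing notes. Which tool, annotation and strand setting gave the counts is not given in the sources used here. The table deposited by the authors holds expected counts (estimated reads per gene, stored as whole numbers), summing to 56 to 64.5 M (M, 1e6) per tumour. In it 4 and 8 are over-frequent among low values, so how many counts stand for 1 fragment is not known. A second table deposited by the authors holds TPM.

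The count test was edgeR 4.0.16 under R 4.3.3, with TMM scaling, filterByExpr, a robust quasi-likelihood fit with 1 mean per group over 20 tumours (16 residual degrees of freedom), and Benjamini-Hochberg adjustment over 15875 genes for each of 6 contrasts, called under 0.05. SE was derived from the log2 fold change and its F statistic, and CPM uses TMM-scaled totals. Replicate numbers were not treated as pairs in the main fit. With group means removed, correlation averaged -0.00694 (-0.41 to 0.369) over 30 pairs of equal number. An average of this kind cannot exclude pairing or a shared batch. No within-group pair was a duplicate (40 pairs, lowest chi-square per degree of freedom 4.21 on counts divided by 4).

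Alternatives were RLE size factors, DESeq2 1.42.0, no filter, limma 3.58.1 on log2(TPM + 1) and log2(TPM + 0.1), a replicate block, omission of the tumours above 1000 CPM of Hbb-bs, a muscle covariate and omission of each tumour. Library totals and a macrophage covariate were added after seeing the data. The scripts were tested on simulated data. Coordinates come from GENCODE M21 (32158 of 32285 identifiers matched), and promoters from RefSeq. All members are named in the text. From each pathway list, genes that passed are named or, where none did, up to 2 with the smallest p, and Fos and Nr4a1 were picked after their values were seen. Likeness names the genes with the highest r. The members and lists were chosen with earlier results of these data known.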

Additional observations from a re-analysis of the deposited data

Results flagged for a closer look

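In 2 of the 40 groups of 5 values (10 members in 4 groups), 1 tumour stood apart by the gap between it and its nearest neighbour on the log2 CPM scale, where chance gives about 1 in 20 groups. Map2k7 was highest in combination 3, at 55.57 CPM, with the other combination tumours between 52.2 and 52.9 CPM. Mapk9 was lowest in propafenone 5, at 59.8 CPM, with the other propafenone tumours between 66.4 and 68.5 CPM. That value was also the lowest Mapk9 level of the 20 tumours.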

How the results depend on the processing

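Of the 60 member values (10 genes in 6 contrasts), 22 changed sign in at least 1 of 31 alternatives (107 of 1860 refits), the largest of them 0.31 in size, and none of these was a called value. The cause of the changes below was not tested. For the combination against IgG, the number of members called was 0 with RLE size factors, no filter, unfiltered log2(TPM + 1), library totals and either covariate, and 1 with log2(TPM + 1) or log2(TPM + 0.1). The genes called were 1408 with DESeq2, 463 with no filter, 480 with library totals and 0 with either covariate. Leaving out 1 tumour gave 5 to 1067 genes and 0 to 3 members. For the combination against propafenone, members called were 1 with RLE size factors, no filter, log2(TPM + 1) or log2(TPM + 0.1), and 0 with unfiltered log2(TPM + 1), library totals and the macrophage covariate. Genes called were 1458 with DESeq2, 335 with no filter, 1142 without the tumours rich in Hbb-bs, 347 with library totals and 2 with the macrophage covariate. Leaving out 1 tumour gave 4 to 1882 genes and 0 to 4 members. DESeq2 called 4 genes for propafenone against IgG, 26 for anti-PD-1 against IgG and 7 for the combination against anti-PD-1. Anti-PD-1 against IgG had 13 without the tumours rich in Hbb-bs and 0 to 1 with 1 tumour left out. The combination against anti-PD-1 had 2 with log2(TPM + 1) and 3 without its filter. In the combination against IgG, Mapk8ip1 turned to 0.14 and Dusp10 to 0.055 with the muscle covariate, and Dusp1 to -0.18 with the macrophage covariate and -0.066 to 0.13 with 1 tumour left out. On log2(TPM + 0.1) limma gave -0.14 for Map2k4 (adjusted p = 0.41) and -0.10 for Map2k7 (adjusted p = 0.65) in that comparison. Ier3 was at -1.24 (adjusted p = 0.033). The median of all genes rose to 0.10 there, and relative to it Map2k4 was at -0.24, Map2k7 at -0.20 and Ier3 at -1.34.

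With the replicate number as a block, 829 genes and 3 members were called for the combination against IgG (658 genes shared with the fit without it), and 675 genes and 2 members against propafenone, where Map2k4 was at an adjusted p = 0.053. With group means removed, 7 of 20 tumours correlated best, among tumours of the other groups, with a tumour of their own number. How many would do so without pairing was not computed, so this count does not decide whether numbers mark a shared batch. Among the genes named here, depth limits Egr3 and Dusp10 most, and the counts per fragment are unknown.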
